A study of Mus musculus with 6 samples.

Results

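The genes of endoplasmic reticulum (ER) stress and of secretory protein folding were examined in cultured bone marrow (BM) MSCs. The set was a list of 40 mouse genes matched by gene name in a table of 56980 genes, and all 40 were found and had enough counts to be tested. They were set apart by role into 19 folding genes, 5 translocation genes, 6 genes of ER-associated degradation, 3 stress sensors and 7 genes of the *Atf4* branch. The cells came from female mice that had undergone OVX (removal of the ovaries) at 8 weeks of age, had been given antibiotics for 1 week to deplete their own gut microbiota, and then received FMT (fecal microbiota transplantation) for 8 weeks. In the TranspCtrl group (3 samples) the fecal donors were sedentary OVX mice. In the TranspExer group (3 samples) they were OVX mice exercised on a treadmill for 8 weeks. Ovariectomy of donors and recipients, antibiotics and transplantation were thus common to both groups. The MSCs were the adherent cells of flushed femur and tibia marrow after 7 days of culture with washes, and no sorting step was described. The labels do not say whether the replicates of a group came from separate mice, so the tests measure the spread between these samples.

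Proteins bound for secretion or for the cell surface enter the ER through a membrane channel, are folded there by chaperones and disulfide isomerases, and are sent back to the cytosol for destruction when folding fails. Unfolded protein in the ER is sensed by the membrane proteins encoded by *Ern1* (IRE1), *Atf6* and *Eif2ak3* (PERK). IRE1 splices the *Xbp1* mRNA, ATF6 is cut to release a transcription factor, and PERK slows translation while favouring translation of ATF4, which induces genes of amino acid supply and of stress-related cell death. In marrow stroma this machinery serves the export of collagen and other matrix proteins, and plasma cells, which secrete antibody, express much of it at high levels.

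Short DNA elements upstream of many of these genes are known binding sites of the stress-activated factors, and the stretches around some of them are shown as examples of the textbook elements in members described in detail here. Promoter windows from RefSeq (GRCm38.p6, 250 bases before to 50 after each start) were found for 34 of the 40 members. The ER stress response element ERSE (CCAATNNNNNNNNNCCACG on either strand), the site of ATF6 and XBP1 together with NF-Y, was present in the windows of 9 members, against 0.119% of all 32851 windows. These members were *Hspa5*, *Hsp90b1*, *Calr*, *Canx*, *Pdia6*, *Dnajc3*, *Creld2*, *Derl3* and *Syvn1*. ERSE-II (ATTGG and CCACG set 1 base apart), which shares these blocks of letters with ERSE, was found in *Herpud1* and *Dnajb11* and in 0.0365% of all windows. The amino acid response element CARE (TGATGNAA), bound by ATF4 with C/EBP proteins, was found in *Asns*, *Chac1*, *Atf3*, *Trib3* and *Herpud1* and in 3.97% of all windows. The sequences run 5′ to 3′ on the strand of the gene, and capitals mark the fixed letters of the element, which read in reverse complement where the element lies on the other strand. The stretches of *Hspa5* and *Asns*, which overlap an exon in the GENCODE annotation, were cut to 30 bases or fewer. The stretches of *Pdia6*, *Dnajc3*, *Syvn1*, *Dnajb11* and *Trib3* are not printed.
*Hspa5* ERSE, chr2:34772020-34772048 (+ strand): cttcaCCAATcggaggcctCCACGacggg
*Hsp90b1* ERSE, chr10:86705624-86705670 (- strand): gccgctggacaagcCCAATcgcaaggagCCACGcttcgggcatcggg
*Hsp90b1* second ERSE, chr10:86705519-86705565 (- strand): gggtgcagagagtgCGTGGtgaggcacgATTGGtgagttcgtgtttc
*Creld2* ERSE, chr15:88819506-88819552 (+ strand): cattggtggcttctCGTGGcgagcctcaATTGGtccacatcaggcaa
*Derl3* ERSE, chr10:75893228-75893274 (+ strand): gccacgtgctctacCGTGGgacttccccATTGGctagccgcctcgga
*Calr* ERSE, chr8:84847061-84847107 (- strand): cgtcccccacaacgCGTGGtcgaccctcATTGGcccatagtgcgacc
*Canx* ERSE, chr11:50325786-50325832 (- strand): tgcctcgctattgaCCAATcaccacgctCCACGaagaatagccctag
*Herpud1* ERSE-II, chr8:94386363-94386401 (+ strand): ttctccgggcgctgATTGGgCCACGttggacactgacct
*Herpud1* CARE, chr8:94386303-94386338 (+ strand): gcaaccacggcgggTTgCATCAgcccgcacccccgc
*Asns* CARE, chr6:7693214-7693243 (- strand): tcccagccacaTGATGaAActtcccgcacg
*Chac1* CARE, chr2:119351035-119351070 (+ strand): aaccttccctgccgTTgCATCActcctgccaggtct
*Atf3* CARE, chr1:191183422-191183457 (- strand): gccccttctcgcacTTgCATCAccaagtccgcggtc

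More members were lower than higher in the TranspExer group. In the quasi-likelihood test of edgeR, adjusted by Benjamini and Hochberg's method over 15190 genes, 20 members were lower (adjusted p-value under 0.05) and 1, *Atf3*, was higher, while 19 were not called. Among all tested genes 15.5% were lower and 16.6% were higher. With the fold change of 2 that defines DEGs added to the threshold, 3 members were downregulated DEGs (*Derl3*, *Fkbp11* and *Trib3*), against 5.28% of all genes, and *Atf3* was an upregulated DEG, against 3.5% of all genes. The log2 fold change of TranspExer over TranspCtrl was negative for 33 members and positive for 7, with a median of -0.33 over the members and -0.02 over all tested genes. In 23 members every TranspExer sample was below every TranspCtrl sample, a pattern shown by 25.1% of all tested genes. By role, 8 of 19 folding genes, 4 of 5 translocation genes, 2 of 6 degradation genes, none of the 3 sensors and 6 of 7 genes of the *Atf4* branch were lower. The median log2 fold changes of these groups were -0.29, -0.60, -0.26, -0.05 and -0.76.

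Total counts were 17647662 to 21319213 per sample, at which 3 counts, the floor used here for a gene, equalled 0.141 to 0.17 CPM (the usual depth-scaled unit of counts) on the raw totals. All other CPM values use TMM-normalized library sizes. TranspCtrl replicate 1 stood apart from the other TranspCtrl samples. Its mean chi-square per gene against TranspCtrl replicates 2 and 3 was 53.8 and 48.6, against 3.59 between those 2 samples. Without it, 30 members were lower and 2 were higher, with 19.6% of all genes lower and 22.1% higher in that fit. The count of lower members was 14, 11 and 10 without TranspExer replicate 1, 2 and 3, fits in which 9%, 8.48% and 8.66% of all genes were lower. It was 19 and 17 without TranspCtrl replicate 2 and 3, with 13.5% and 11.9% of all genes lower. Of the 20 lower members, 10 passed in each of 13 other fits, namely *Hsp90b1*, *Creld2*, *Ero1a*, *Sec11c*, *Derl3*, *Herpud1*, *Atf4*, *Trib3*, *Chac1* and *Asns*, and so did *Atf3*. A test against a fold change of 2 within the model, not among these 13 fits, left 1 lower and 1 higher member.

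**Figure D1:**
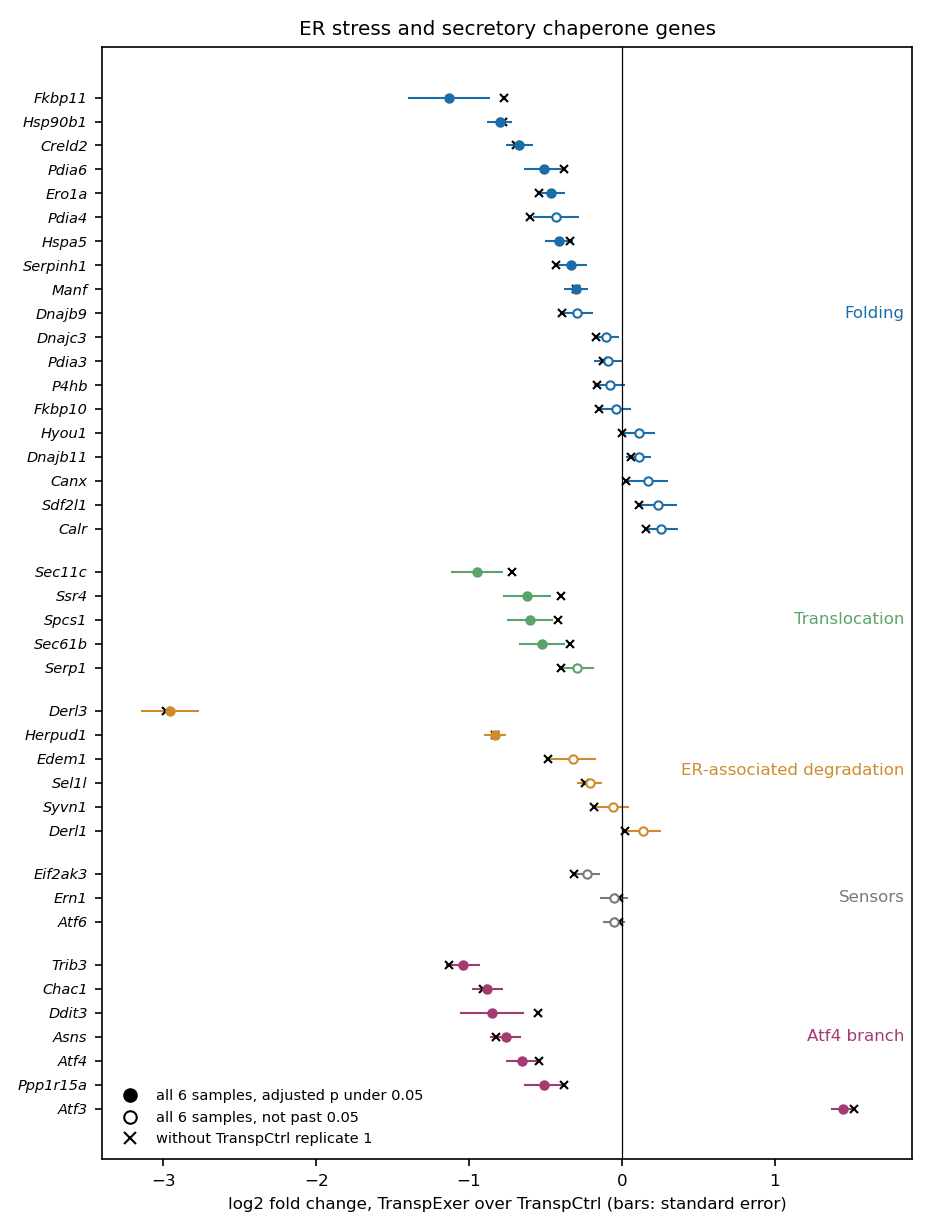
Log2 fold change (TranspExer over TranspCtrl) of each of the 40 members, grouped by role, with the standard error as a bar. Filled circles passed an adjusted p-value of 0.05 in the fit of all 6 samples, open circles did not, and crosses show the fit without TranspCtrl replicate 1. *Derl3* lies farthest to the left at -2.96, *Atf3* is the only filled circle to the right of 0 at 1.45, and the crosses of *Fkbp11*, *Sec11c* and *Ddit3* lie nearer to 0 than their circles.

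Marker genes were used to see which cells the cultures held. All 11 markers of marrow stroma were above the floor, with a summed level of 11738 CPM in TranspCtrl replicate 1, 19542 and 18809 CPM in the other TranspCtrl samples and 12986 to 14223 CPM in TranspExer. Without the collagen genes *Col1a1* and *Col1a2* the sum was 2043 to 2240 against 2096 to 2132 CPM. Of the 11 markers, 6 were lower in TranspExer, among them *Col1a2* (log2 fold change -0.61) and *Cxcl12* (-0.46), and 4 were higher, namely *Eng* (1.69), *Mcam* (1.01), *Vcam1* (0.65) and *Pdgfrb* (0.39). Of 7 osteoblast markers, 5 could be tested. Lower ones were *Ibsp* (-2.96), *Sp7* (-1.07) and *Alpl* (-0.99), while *Runx2* (-0.12) and *Spp1* (-0.09) were not called. Without TranspCtrl replicate 1, *Runx2* was also lower (-0.34), and *Dmp1*, at 16 counts or fewer in every sample, was higher (1.64). The osteocalcin gene *Bglap* had at most 0.0523 CPM in any sample and was not tested. Markers of plasma cells were present in every sample, and their sum was 12851, 7588 and 8453 CPM in TranspCtrl against 2173, 2129 and 1930 CPM in TranspExer, 4.64-fold lower on average. None of these 16 markers stayed at or under 3 counts in all samples, 13 were lower in TranspExer, and the plasma cell genes *Jchain* and *Mzb1* had log2 fold changes of -2.29 and -3.57. The 3 markers not called were *Ighg2b* (-0.39), *Sdc1* (0.14) and *Slamf7* (0.37), and *Slamf7* was called higher without TranspCtrl replicate 1 (0.53, adjusted p = 2.1e-05). The B cell gene sum was 352 to 355 CPM against 249 to 263 CPM, with 5 of 9 markers lower, all 5 of them DEGs, 1 higher (*Cd22*, 0.25) and a median log2 fold change of -1.25, and the endothelial sum 198 to 251 against 674 to 745 CPM. The neutrophil sum was 3173 to 4255 against 5478 to 5698 CPM, with 3 of 9 markers higher (*Mpo*, *Elane* and *Ngp*), 1 lower and a median log2 fold change of 0.07. Without TranspCtrl replicate 1, 6 neutrophil markers were higher and none was lower, with a median of 0.30. In the other sums a single gene weighed heavily. The macrophage sum was 9504 to 14608 against 7715 to 8408 CPM with *Lyz2* and 4558 to 5506 against 5120 to 5247 CPM without it, and the osteoblast sum was 2815 to 3520 against 2659 to 2912 CPM with *Spp1* and 171 to 227 against 110 to 115 CPM without it. The part of these cells in the members' values was not tested, and in bulk RNA fewer cells of a type and less RNA per cell cannot be told apart.

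Among the folding genes, those of the chaperones BiP and GRP94 were lower in the TranspExer group. *Hspa5* (ENSMUSG00000026864, chr2:34771970-34777547) encodes BiP, the main HSP70 chaperone of the ER and a standard readout of ER stress. It had 1305, 1139 and 1122 CPM in TranspCtrl and 933, 878 and 873 CPM in TranspExer. The groups did not overlap, and *Hspa5* fell by 0.41 on the log2 scale (standard error, SE, 0.09 and adjusted p = 0.013). *Hsp90b1* (ENSMUSG00000020048, chr10:86690209-86705509), which encodes the ER chaperone GRP94, had 1768, 1714 and 1715 CPM against 1019, 1005 and 965 CPM. Its samples lay close together within each group and far apart between groups, with a log2 fold change of -0.80 (SE 0.08, adjusted p = 0.000372) that was -0.78 without TranspCtrl replicate 1. The adjusted p-value of *Hspa5* was 0.0651 without TranspExer replicate 2 and 0.0572 without TranspExer replicate 3. *Hyou1*, whose product GRP170 helps BiP release nucleotide, had 199 to 258 CPM in TranspCtrl and 246 to 271 CPM in TranspExer and was not called (log2 fold change 0.11, adjusted p = 0.466, and 0.00 without TranspCtrl replicate 1).

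The lectin chaperones of the same compartment were not called. *Calr*, for calreticulin, had 1234, 1528 and 1568 CPM in TranspCtrl and 1787, 1694 and 1718 CPM in TranspExer. All TranspExer values were above all TranspCtrl values, but the log2 fold change of 0.26 did not pass (adjusted p = 0.101). It was 0.16 and passed without TranspCtrl replicate 1 (adjusted p = 0.0108). *Canx*, for its membrane-bound relative calnexin, had 632 to 884 CPM against 890 to 909 CPM (log2 fold change 0.17, adjusted p = 0.341), and its log2 fold change was 0.03 without TranspCtrl replicate 1. Both have an ERSE in their windows, as do *Hspa5* and *Hsp90b1*.

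The enzymes of disulfide formation and the smaller chaperone cofactors differed among themselves. *Ero1a*, the oxidase that recharges disulfide isomerases, had 168, 199 and 199 CPM against 138, 141 and 133 CPM, and fell by 0.46 on the log2 scale (SE 0.09, adjusted p = 0.00762). *Pdia6* had 510, 389 and 401 CPM in TranspCtrl against 322, 318 and 274 CPM, so that TranspCtrl replicate 1 was the highest sample. Its log2 fold change was -0.51 (adjusted p = 0.0181), and -0.38 without that sample, and it lost its call without any 1 TranspExer sample (adjusted p = 0.0525, 0.0582 and 0.0793). In *Pdia4* TranspCtrl replicate 1 lay at the other side, with 437 CPM against 633 and 648 CPM in its group and 417 to 436 CPM in TranspExer. *Pdia4* did not pass with all samples (log2 fold change -0.43, adjusted p = 0.0549) and passed without TranspCtrl replicate 1 (-0.60, adjusted p = 6.24e-07). It also passed with DESeq2 (adjusted p = 0.0226). The isomerases *Pdia3* and *P4hb*, the latter also a subunit of collagen prolyl 4-hydroxylase, were not called, with log2 fold changes of -0.09 and -0.08. *P4hb* passed without TranspCtrl replicate 1, at -0.16 (adjusted p = 0.0112).

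*Creld2* (ENSMUSG00000023272, chr15:88819646-88826683), an ER stress-inducible gene, had 64.6, 64.2 and 70.0 CPM in TranspCtrl and 45.1, 41.6 and 38.0 CPM in TranspExer. The groups did not overlap and the log2 fold change was -0.67 (SE 0.09, adjusted p = 0.00119). *Manf*, a stress-inducible secreted cofactor of BiP, had 172, 163 and 177 CPM against 146, 139 and 130 CPM and fell by 0.30 on the log2 scale (SE 0.08, adjusted p = 0.023). *Manf* shares exon bases with *Dcaf1* on the opposite strand and *Rbm15b* on the same strand, whose counts were 21.3% and 47.7% of its own, and its adjusted p-value reached 0.0833 with 1 sample left out (TranspExer replicate 3). It was 0.0794 without TranspCtrl replicate 3 and 0.0815 without TranspExer replicate 2. The J-domain cofactors of BiP were not called. *Dnajb9* had 42.4 to 53.8 CPM in TranspCtrl and 39.6 to 42.5 CPM in TranspExer (log2 fold change -0.29, adjusted p = 0.0662), *Dnajc3* had a log2 fold change of -0.10 and *Dnajb11* one of 0.11. *Sdf2l1*, a partner of *Dnajb11*, was at 57.4 ± 8.96 CPM (SD, n = 3) against 67.6 ± 5.09 CPM, with groups that overlapped, and was not called by edgeR either (log2 fold change 0.24, adjusted p = 0.174). Without TranspCtrl replicate 1, *Dnajb9* (-0.39, adjusted p = 0.000227) and *Dnajc3* (-0.17, adjusted p = 0.016) passed, and *Sdf2l1* and *Dnajb11*, at 0.11 and 0.06, did not.

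Of the 3 collagen-directed and secretory-cell folding factors, *Serpinh1* and *Fkbp11* fell and *Fkbp10* was not called. *Serpinh1* (ENSMUSG00000070436, chr7:99345376-99353239) encodes HSP47, the collagen-specific chaperone. It had 1572, 1951 and 1894 CPM in TranspCtrl and 1454, 1397 and 1445 CPM in TranspExer, so the groups did not overlap. Its log2 fold change of -0.33 (SE 0.10, adjusted p = 0.0416) was near the threshold. The adjusted p-value was 0.0958 to 0.127 without any 1 sample other than TranspCtrl replicate 1, and 5.91e-06 without that one (log2 fold change -0.43). *Fkbp10*, a prolyl isomerase that acts on collagen, was at 190 to 243 CPM against 213 to 221 CPM and was not called (log2 fold change -0.04, adjusted p = 0.775). It passed without TranspCtrl replicate 1, at -0.15 (adjusted p = 0.0333). *Fkbp11* (ENSMUSG00000003355, chr15:98724366-98728198), a prolyl isomerase known from plasma cells and other secretory cells, had 19.9, 10.5 and 11.1 CPM against 7.74, 6.10 and 5.12 CPM. Although the groups did not overlap, TranspCtrl replicate 1 held far more than the others. The log2 fold change of *Fkbp11* was -1.13 (SE 0.27, adjusted p = 0.0174), and -0.77 without that sample, under the fold change of 2 for DEGs. The adjusted p-value was 0.0669 without TranspExer replicate 2 and 0.0793 without TranspExer replicate 3. The plasma cell marker sum moved in the same direction and was also highest in TranspCtrl replicate 1 (12851 CPM against 7588 and 8453 CPM in its group and 1930 to 2173 CPM in TranspExer), and its part in these values was not tested.

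**Figure D2:**
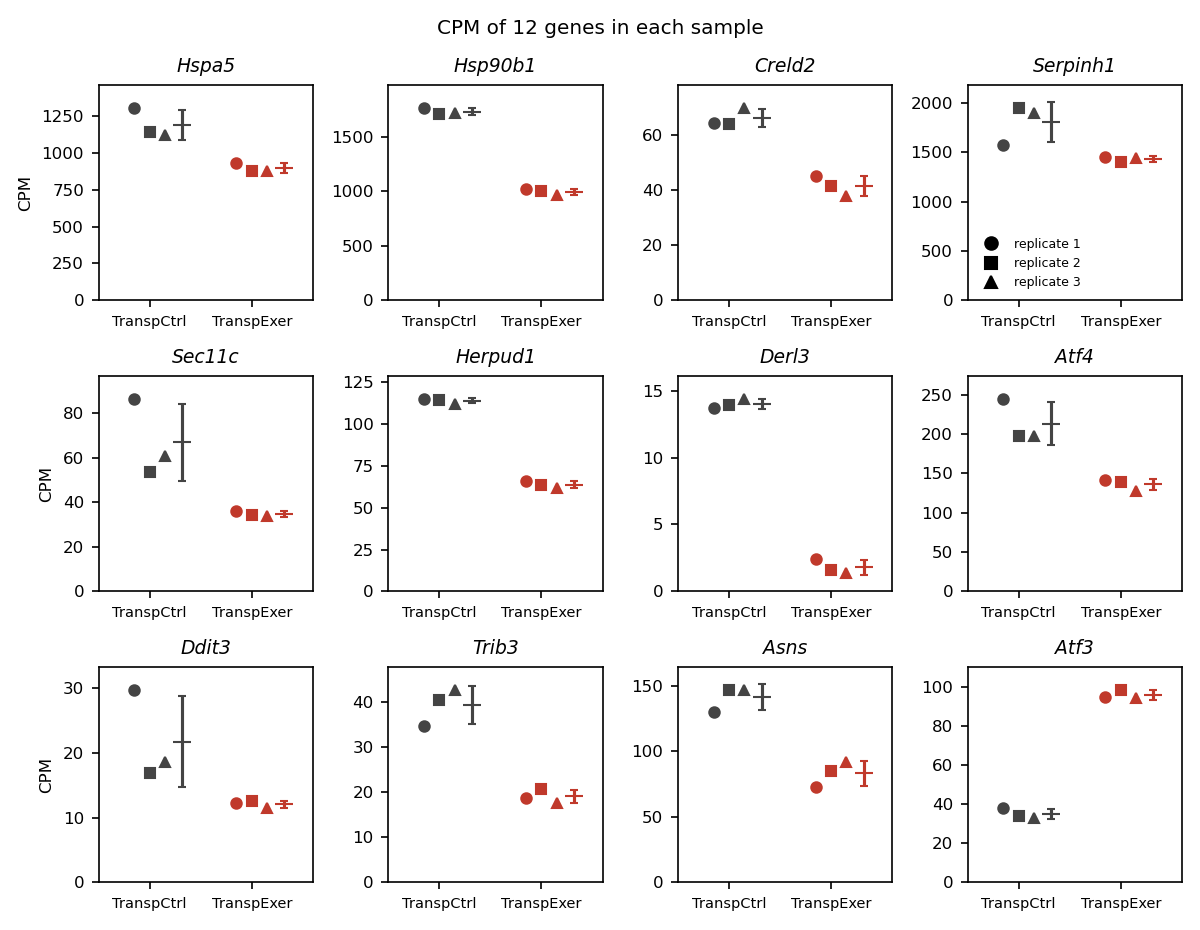
CPM (TMM-scaled, linear axis from 0) of 12 members in each sample of the TranspCtrl (grey) and TranspExer (red) groups, with circles, squares and triangles for replicates 1, 2 and 3 and a bar for the mean and SD of 3 samples. All 12 genes, a selection of the members, show groups that do not overlap, and *Atf3* alone is higher in TranspExer. Over all 40 members, 23 were lower and 3 higher without overlap, and 25.1% of all tested genes were lower without overlap. TranspCtrl replicate 1 lies above its group in *Sec11c*, *Atf4* and *Ddit3* and below it in *Serpinh1*.

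The 5 translocation genes, which serve the entry of new proteins into the ER and the removal of their signal peptides, all had negative log2 fold changes. *Sec11c*, a catalytic subunit of the signal peptidase, had 86.4, 53.4 and 60.5 CPM in TranspCtrl and 36.0, 34.1 and 33.9 CPM in TranspExer. Its log2 fold change was -0.95 (SE 0.17, adjusted p = 0.0047), and -0.72 without TranspCtrl replicate 1. *Ssr4*, a subunit of the translocon-associated complex, had 116, 74.3 and 81.4 CPM against 59.9, 59.3 and 57.6 CPM. *Spcs1*, another signal peptidase subunit, had 116, 76.9 and 87.3 CPM against 67.7, 60.8 and 56.1 CPM. *Sec61b*, a subunit of the channel itself, had 92.5, 60.1 and 70.3 CPM against 56.8, 49.2 and 49.2 CPM. In all 4 genes the groups did not overlap, and TranspCtrl replicate 1 was the highest sample. The log2 fold changes of *Ssr4*, *Spcs1* and *Sec61b* were -0.62, -0.60 and -0.52 (adjusted p = 0.0197, 0.0201 and 0.0344), and -0.40, -0.42 and -0.34 without that sample, where all 3 still passed. *Ssr4* lost its call without any 1 TranspExer sample, as did *Sec61b* (also without TranspCtrl replicate 3), and *Spcs1* without TranspExer replicate 2 or 3. The number of lower genes in this group was 2, 1 and 1 without TranspExer replicate 1, 2 and 3, with 9%, 8.48% and 8.66% of all genes lower. *Serp1*, which protects newly made membrane proteins, was at 391, 508 and 492 CPM against 394, 385 and 360 CPM, with TranspCtrl replicate 1 among the TranspExer samples, and was not called (log2 fold change -0.29, adjusted p = 0.0862). It passed without that sample (-0.40, adjusted p = 5.77e-05). *Glt8d1*, which overlaps *Spcs1* on the opposite strand, had 35.1% of its counts, and *Eif2a*, which overlaps *Serp1* in the same way, had 16.8%.

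Genes of ER-associated degradation were split between a pair that fell and 4 that were not called. *Derl3* (ENSMUSG00000009092, chr10:75893413-75895941) encodes a derlin, a membrane protein of the export of misfolded proteins, that is expressed in secretory cells. It had 13.7, 13.9 and 14.4 CPM in TranspCtrl (271 to 309 counts) and 2.41, 1.57 and 1.39 CPM in TranspExer (27 to 46 counts). The groups were far apart, and the log2 fold change of -2.96 (SE 0.19, adjusted p = 6.18e-05) was the largest of any member in size. It was -2.98 without TranspCtrl replicate 1. The plasma cell gene *Mzb1* had 154, 118 and 120 CPM in TranspCtrl and 11.8, 10.2 and 11.2 CPM in TranspExer, and the part of such cells in the fall of *Derl3* was not tested. *Herpud1* (ENSMUSG00000031770, chr8:94386438-94395377) is a stress-induced scaffold of the degradation complex and carries both an ERSE-II and a CARE in its window. It had 115, 114 and 112 CPM against 66.0, 63.5 and 61.5 CPM, and a log2 fold change of -0.83 (SE 0.07, adjusted p = 0.000154) with and without TranspCtrl replicate 1.

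The ubiquitin ligase of the same complex and its adaptor were closer between groups. *Sel1l*, the adaptor, had 199, 216 and 204 CPM in TranspCtrl and 169, 180 and 186 CPM in TranspExer. Its groups did not overlap, but its log2 fold change of -0.21 did not pass (adjusted p = 0.0731). *Syvn1*, the ligase, had 80.5 to 108 CPM against 90.4 to 97.3 CPM and a log2 fold change of -0.06, and shares exon bases with *Mrpl49*, whose counts were 16.9% of its own. *Edem1*, a lectin that delivers misfolded glycoproteins, had 310, 460 and 460 CPM against 319, 323 and 346 CPM. TranspCtrl replicate 1 lay below the TranspExer samples, and *Edem1* was not called (log2 fold change -0.32, adjusted p = 0.142). Without TranspCtrl replicate 1, *Edem1* (-0.48, adjusted p = 8.93e-06), *Sel1l* (-0.24, adjusted p = 0.00504) and *Syvn1* (-0.18, adjusted p = 0.0218) passed. This took the lower genes of this group from 2 to 5, while the share of all genes lower went from 15.5% to 19.6%. *Derl1*, the widely expressed derlin, had 145 to 195 CPM against 190 to 203 CPM and differed by 0.14 on the log2 scale with all samples and by 0.02 without TranspCtrl replicate 1 (adjusted p = 0.375 and 0.779).

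The genes of the stress sensors themselves were not called. *Ern1* had 58.4, 54.8 and 54.5 CPM in TranspCtrl and 49.1, 54.5 and 58.6 CPM in TranspExer. *Atf6* had 115, 113 and 107 CPM against 106, 107 and 112 CPM. The groups overlapped in both genes, and both log2 fold changes were -0.05 (SEs 0.09 and 0.07, adjusted p = 0.69 and 0.654). *Eif2ak3* had 44.4, 54.6 and 49.5 CPM against 41.3, 40.9 and 44.0 CPM, with no overlap and a log2 fold change of -0.23 (adjusted p = 0.0894). It passed without TranspCtrl replicate 1 (-0.31, adjusted p = 0.00276), with upper-quartile normalization and with scaling by library size only. Sensor activity, which is set by splicing, cleavage and phosphorylation, is not measured by gene counts.

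Of the *Atf4* branch, every gene passed, all but *Atf3* in the lower direction. *Atf4* (ENSMUSG00000042406, chr15:80255184-80257541) encodes the transcription factor at the centre of the PERK arm, which also serves amino acid shortage. It had 245, 197 and 198 CPM in TranspCtrl and 141, 139 and 128 CPM in TranspExer. The groups did not overlap, TranspCtrl replicate 1 was the highest sample, and *Atf4* fell by 0.65 on the log2 scale (SE 0.11, adjusted p = 0.0033). Without that sample its log2 fold change was -0.54. *Ddit3* (ENSMUSG00000025408, chr10:127290774-127296288), which encodes the pro-apoptotic factor CHOP, had 29.7, 16.8 and 18.5 CPM against 12.2, 12.5 and 11.4 CPM. Here too TranspCtrl replicate 1 was the highest sample, and the log2 fold change moved from -0.85 (SE 0.21, adjusted p = 0.0184) to -0.55 without it. The adjusted p-value of *Ddit3* was 0.0621 to 0.0791 without any 1 TranspExer sample. *Mars1*, which overlaps *Ddit3* by 68 exon bases on the opposite strand, had 471% of its counts, and a second *Ddit3* gene model on the same strand held 0.647% of its counts and was left out.

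Of the other members of this branch, *Trib3*, *Chac1*, *Asns* and *Ppp1r15a* fell as well. *Trib3* (ENSMUSG00000032715, chr2:152337422-152344032), a pseudokinase gene induced late in ER stress, had 34.6, 40.4 and 42.7 CPM in TranspCtrl and 18.7, 20.7 and 17.7 CPM in TranspExer. TranspCtrl replicate 1 was the lowest of its group, and the log2 fold change was -1.04 (SE 0.11, adjusted p = 0.000438) and -1.13 without it. *Chac1* (ENSMUSG00000027313, chr2:119351229-119354381), which encodes a glutathione-degrading enzyme, had 15.8, 17.3 and 16.1 CPM against 8.37, 8.95 and 9.39 CPM (log2 fold change -0.88, SE 0.10, adjusted p = 0.000726). *Asns* (ENSMUSG00000029752, chr6:7675169-7693254), for asparagine synthetase, had 130, 147 and 147 CPM against 72.8, 84.7 and 92.0 CPM (log2 fold change -0.76, SE 0.10, adjusted p = 0.00146). In these 3 genes the groups did not overlap. *Ppp1r15a*, for GADD34, which lets translation resume after stress, was at 25.9 to 33.7 CPM against 19.1 to 22.3 CPM (log2 fold change -0.51, adjusted p = 0.0196). It did not pass without TranspExer replicate 1 (adjusted p = 0.0807) or TranspExer replicate 3 (adjusted p = 0.083).

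*Atf3* (ENSMUSG00000026628, chr1:191170296-191218039) encodes a stress-induced transcription factor that ATF4 can induce and that other stress and cytokine signals induce as well. It went against its branch, with 38.1, 33.9 and 33.3 CPM in TranspCtrl and 95.2, 98.9 and 94.5 CPM in TranspExer. Samples agreed closely within each group, and *Atf3* was 2.74-fold higher in TranspExer (log2 fold change 1.45, SE 0.08, adjusted p = 4.26e-05). The log2 fold change was 1.52 without TranspCtrl replicate 1. The *Atf3* window holds a CARE, as do the windows of *Asns*, *Chac1*, *Trib3* and *Herpud1*, which all fell. Of the 9 members with an ERSE, 5 fell and 4 were not called. For comparison, 20 of all 40 members and 15.5% of all tested genes were lower. Whether either element goes with a change was not tested.

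Per kilobase of gene length, a scale on which genes can be compared, the members spanned levels from 831 CPM per kb for *Serpinh1* to 8.05 for *Ern1* in TranspCtrl. *Serpinh1*, *Calr*, *Hsp90b1*, *P4hb*, *Pdia3* and *Hspa5* held the first 6 ranks there, at 831, 661, 613, 404, 334 and 324 CPM per kb. They held the first 6 ranks in TranspExer too, in another order, with *Calr* first at 793 and *Serpinh1* next at 659 CPM per kb. *Hsp90b1* moved from 613 to 353 CPM per kb, below *P4hb* at 383. At the low end, *Derl3* went from 10.6 to 1.35 CPM per kb and from rank 38 to the lowest rank, 40, while *Atf3* went from 17.7 to 48.5 CPM per kb and from rank 34 to 22.

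Other genes of the pathway were examined in 4 lists of 110 genes in all, of which 109 could be tested. Of these, 42 were lower and 8 were higher in TranspExer, against 15.5% and 16.6% of all genes, and the median log2 fold change was -0.19. Among 30 other folding and glycan genes, 13 were lower and 1 was higher (*Cnpy3*, log2 fold change 0.29, named after its value was seen), with a median of -0.22. *Xbp1*, the transcription factor activated by IRE1, had 329, 322 and 335 CPM in TranspCtrl and 190, 181 and 163 CPM in TranspExer. Its groups lay far apart and its log2 fold change was -0.88 (SE 0.08, adjusted p = 0.000308), and gene counts do not separate the spliced from the unspliced mRNA. *Txndc5*, a disulfide isomerase, *Fkbp9*, a prolyl isomerase, and *Prdx4*, a peroxiredoxin of the ER, differed by -0.95, -0.73 and -0.75 on the log2 scale (adjusted p = 0.000138, 0.000332 and 0.000566). Of 28 other genes of translocation and the oligosaccharyltransferase, 5 were lower and none was higher (median -0.17). These were *Ssr2*, *Srp54a*, *Rpn2*, *Sec62* and *Ost4*, at -0.61, -0.28, -0.26, -0.26 and -0.76 on the log2 scale (adjusted p = 0.00287, 0.0262, 0.0296, 0.0415 and 0.0415), and *Ost4* was at -0.40 without TranspCtrl replicate 1. The count of lower genes in this list was 12 without TranspCtrl replicate 1, with 19.6% of all genes lower. It was 1 or 2 without any other sample, with 8.48% to 13.5% of all genes lower.

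Other degradation genes went both ways. Of 22 such genes 7 were lower and 6 were higher, with a median log2 fold change of 0.05. *Edem3*, *Ngly1* and *Ube2j1*, which act on glycans or ubiquitin in this pathway, differed by -0.46, -0.47 and -0.41 on the log2 scale (adjusted p = 0.00266, 0.00374 and 0.00395). *Aup1*, which recruits a ubiquitin-conjugating enzyme, had one of 0.46 (adjusted p = 0.00217). Without any 1 TranspExer sample, 4 of these genes were lower and 2 higher, in fits with 8.48% to 9% of all genes lower. The share of all genes higher in those fits was not counted. Among 29 tested ATF4 targets, 17 were lower, 1 was higher and 11 were not called, with a median of -0.45, and 5 were downregulated DEGs (*Aldh1l2*, *Vldlr*, *Cth*, *Stc2* and *Nupr1*). *Aldh1l2*, a mitochondrial folate enzyme, had 147, 163 and 149 CPM against 58.3, 60.7 and 59.9 CPM (log2 fold change -1.36, SE 0.08, adjusted p = 4.54e-05). *Cth*, which makes cysteine, and *Vldlr*, a lipoprotein receptor, differed by -2.03 and -1.29 on the log2 scale (adjusted p = 8.1e-05 and 4.98e-05). *Gdf15*, a stress-induced cytokine, was the gene that rose, like *Atf3* among the members. It had 12.9, 13.9 and 14.1 CPM in TranspCtrl and 41.5, 43.8 and 38.0 CPM in TranspExer (log2 fold change 1.59, SE 0.09, adjusted p = 4.66e-05). *Fgf21*, at 17 counts or fewer in every sample, was not tested.

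**Figure D3:**
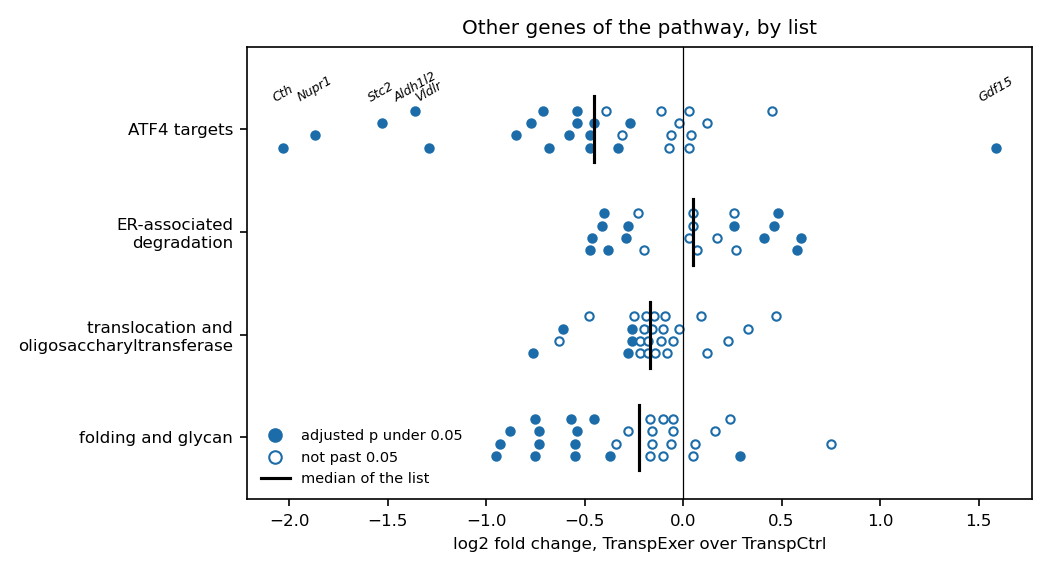
Log2 fold changes (TranspExer over TranspCtrl) of the 109 tested genes of the 4 other lists, 1 row per list, with filled circles for an adjusted p-value under 0.05, open circles for the rest and a line at the median. Most filled circles of the ATF4 target row lie to the left of 0 while *Gdf15* stands alone at 1.59, and the degradation row has filled circles on both sides with its median at 0.05. Gene names are given where the size of a called log2 fold change was above 1.2.

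The distance of TranspCtrl replicate 1 from its group was related to gene length. Over all tested genes its log2 CPM minus the mean of TranspCtrl replicates 2 and 3 had a median of 0.36 for genes up to 1000 bases, 0.11 for 1000 to 2000, -0.03 for 2000 to 4000 and -0.14 for longer genes. Among the 40 members the same difference had Pearson's r of -0.61 and Spearman's rho of -0.50 with log2 length, against -0.27 and -0.29 over all 15190 tested genes, a description across genes that share the same libraries. *Fkbp11* (734 bases), *Ddit3* (890), *Sec11c* (821), *Ssr4* (800), *Sec61b* (430) and *Spcs1* (1005) were all higher in that sample, whereas *Edem1* (5817) and *Pdia4* (2399) were lower. The short *Sdf2l1* (1108) went the other way, at -0.41, as did the longest members *Atf6* (7246) and *Ern1* (6946), at 0.06 and 0.10. Members with lengths near that of *Pdia4* went both ways. *Ppp1r15a* (2333) and *Pdia6* (2125) were at 0.36 and 0.37, and *Calr* (2184) and *Serpinh1* (2173) at -0.33 and -0.29. The fall of each of the 6 members named first was smaller without that sample, which follows from its being the highest of its group in them. *Edem1* and *Pdia4*, in which that sample was the lowest of its group, were not called with all samples and were called without it. Without TranspCtrl replicate 1, the log2 fold changes of the members still varied with length, with r of 0.25 and rho of 0.39, against 0.37 and 0.53 with all samples. Over all 1397 tested genes of up to 1000 bases the median log2 fold change was -0.23 with all samples and -0.09 without TranspCtrl replicate 1. Of the 5 translocation genes, *Sec61b*, *Sec11c* and *Ssr4* are within that length. The part of gene length in the members' values was not tested further.

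**Figure D4:**
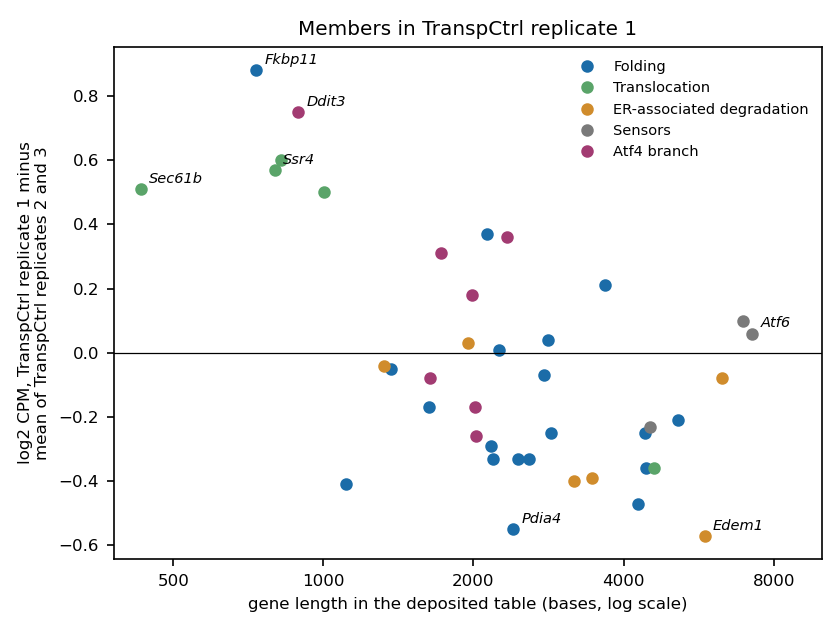
Log2 CPM of TranspCtrl replicate 1 minus the mean of TranspCtrl replicates 2 and 3 for the 40 members (vertical axis), against the gene length in the deposited table in bases (horizontal log axis), coloured by role. Short members such as *Fkbp11*, *Ddit3* and *Sec61b* lie above 0, and *Edem1* and *Pdia4* lie lowest.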

How the data were processed

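The authors deposited expected counts per gene (estimated read counts, not normalized, 10.1% to 12.2% of the values of a sample not whole) for 6 samples of mouse BM MSCs. The aligner, the counting tool and their handling of strand and of overlapping genes are not given in the sources used here. The submitters' processing notes name the mm10 genome, so coordinates are from GENCODE M21 (GRCm38), in which 52125 of 56980 gene identifiers were found. For the libraries, a stranded mRNA kit is given by the labels and a TruSeq kit by the methods of the paper.

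Counts were rounded and tested with edgeR 4.0.16 in R 4.3.3 (filterByExpr, TMM, quasi-likelihood test of group, no covariate), and p-values were adjusted by Benjamini-Hochberg over 15190 genes. Genes were called at an adjusted p-value of 0.05, and DEGs had in addition a fold change of at least 2. CPM used TMM factors, and standard errors came from the log2 fold change and the F statistic. The precision set by depth covers counting error only. Overlap with other genes was taken from shared exon bases.

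The members and the lists were chosen with earlier results of these data known. Every member was named. Values per sample were given for *Hspa5*, *Xbp1*, *Atf4*, *Ddit3*, *Derl3* and *Serpinh1* and for the members with the smallest adjusted p-values of each role (up to 8 of folding, up to 4 of the others), with some further members after their values were seen. Up to 4 genes with the smallest adjusted p-values were named per list, as were genes of counts of 5 or fewer. Alternatives were DESeq2 1.42.0, other scalings and filters, immunoglobulin genes left out, a test against a fold change of 2 within the model, a replicate block, and each sample left out. Samples with the same replicate number did not deviate together (correlations of 0.03, 0 and 0.04), so the numbers were not taken as pairs.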

Additional observations from a re-analysis of the deposited data

How the results depend on the processing

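Of the 40 single log2 fold changes, 18 kept their direction and their side of the threshold in all 13 other fits. The others changed in at least 1 fit, and the cause was not tested. Signs turned for 3 members close to 0, namely *Fkbp10* (0.03 without TranspCtrl replicate 2), *Syvn1* (0.02 without TranspCtrl replicate 3) and *Ern1* (0.01 without TranspExer replicate 1). Without TranspCtrl replicate 1, *Fkbp10* and *Syvn1* were at -0.15 and -0.18. With 1 sample left out, the lower members numbered 10 to 30 (1 to 2 higher), lower folding genes 3 to 13, translocation genes 1 to 5, degradation genes 2 to 5 and sensors 0 to 1, with medians of -0.72 to -0.40 for translocation, -0.12 to -0.02 for the sensors and -0.82 to -0.55 for the *Atf4* branch. In the other lists, 0 to 3 folding and glycan genes were higher and 12 to 20 lower, 0 to 1 translocation genes higher and 1 to 12 lower, and 2 to 6 degradation genes higher and 4 to 8 lower. For each of these groups and lists the highest count of lower genes was that without TranspCtrl replicate 1.

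Testing the fold change of 2 within the model left 1 downregulated DEG among the members. Scaling by library size only gave 4 lower degradation genes, 1 lower sensor, 0 higher genes in the folding and glycan list, 11 lower genes in the translocation list, and medians of -0.37 (folding), -0.14 (sensors) and -0.85 (*Atf4* branch). Upper-quartile normalization gave 1 lower sensor, 0 higher genes in the folding and glycan list, 10 lower genes in the translocation list, and medians of -0.37, -0.13 and -0.84. These scalings moved the median of all genes by -0.09 and -0.08. In the folding and glycan list, DESeq2, no filter on low counts and the replicate block each gave 2 higher genes, and no filter gave 1 higher translocation gene. With the replicate block, 39 of 40 members kept their call and *Serpinh1* lost it (adjusted p = 0.0699).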
